A study of Mus musculus with 4 samples.

Results

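Slit1, Slit2, Slit3, Robo1, Robo2 and Robo3 are the Slit ligand and Robo receptor genes described here, 6 of the 31899 genes listed for every library, each found by its symbol. Their RNA was counted in nuclei from the posterior substantia innominata, part of the basal forebrain, which was dissected from wild-type mice aged 8 weeks. The groups were 2 male libraries and 2 female libraries, and the series was made to compare the sexes. The labels give no strain and no treatment, and nothing in them ties a library to an animal or a pool of animals. A p-value here therefore weighs a difference against the spread of these libraries alone, and that spread may be technical.

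Slits are large secreted glycoproteins that bind Robo receptors on growing axons and migrating cells and, in most settings, repel them. Robo1 and Robo2 are the main Slit receptors of the brain and stay expressed after development, when they are studied in dendrites and synapses. Robo3 is a divergent receptor best known from commissural axons of the embryo, where it works with the netrin receptor Dcc and binds the ligand Nell2.

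Nuclei with 500 to 8000 detected genes and less than 5% mitochondrial UMIs (unique molecular identifiers, 1 per captured RNA molecule) were classed by raw UMIs of markers. The cholinergic class held at least 2 UMIs of Chat and Slc5a7 together. Other nuclei entered the Gad class with at least 2 UMIs of Gad1 and Gad2, which make GABA, or the Slc17a6 or Slc17a7 class with at least 2 UMIs of that glutamate transporter. Glia were classed by at least 2 UMIs of Gja1 and Aqp4 (astrocytes), Mog and Mag (oligodendrocytes), Pdgfra and Cspg4 (oligodendrocyte precursors, OPC) or Inpp5d and Csf1r (microglia). Nuclei in several classes were dropped. Male 1 and male 2 kept 5926 and 5740 nuclei of 8829 and 8577 that passed the filter, and female 1 and female 2 kept 5127 and 5100 of 10881 and 10581. The Gad class was the largest with 13560 nuclei and the Slc17a7 class the smallest with 87, of which female 1 gave only 2. Levels are given as counts per 1000000 UMIs of the class (CPM), summed over the nuclei of a library.

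Depth and processing differed with sex. Nuclei of the male libraries held a median of 10406 and 10015 UMIs, those of the female libraries 4192 and 3806, and the file headers name different Cell Ranger versions and gene lists for the sexes. The 2 males were far more alike than the 2 females: over 9150 genes of the Gad class the SD of the log2 ratio was 0.0796 between males and 0.72 between females. Male and female libraries had no cell barcode in common, whereas the male pair shared 23 and the female pair 35. Marker genes not used for classing were highest in their own class for cholinergic, Gad, Slc17a7, astrocyte, oligodendrocyte, OPC and microglial nuclei. In the Slc17a6 class the 3 check genes Tcf7l2, Ebf1 and Nrn1 summed to 191 CPM against 259 in the Gad class and 403 in astrocytes, so it is called by its rule only. In the Slc17a7 class of female 1, all 3 check genes were at 0.

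The members are long genes, apart from Robo3, on 5 chromosomes of the mouse genome (GRCm38, GENCODE vM21). Slit1 spans chr19:41600257-41743665 on the minus strand, Slit2 chr5:47983138-48307733 and Slit3 chr11:35121224-35708507 on the plus strand. Robo1 (chr16:72308306-73046095, plus strand) and Robo2 (chr16:73891839-74411825, minus strand) lie on the same chromosome, and Robo3 covers only 17.6 kb at chr9:37415669-37433246 on the minus strand. Nuclear RNA is largely unspliced, so reads from introns can count and gene span is used below as the length. Within their spans Slit2 holds 6 annotated genes on its own strand, Robo2 5 and Slit3 3, most of them non-coding or of uncertain status, and reads shared with them cannot be told apart here.

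Slit2 and Slit3 each carry a copy of the microRNA miR-218 in an intron, and the 3′ untranslated regions (3′ UTRs) of both main receptors hold matches to its seed. The mature sequence is the same from Mir218-1 in Slit2 (chr5:48223966-48223986) and from Mir218-2 in Slit3 (chr11:35616840-35616860), both on the plus strand. It is shown with its seed, bases 2 to 8, in capitals (RefSeq, GRCm38.p6). The receptor sites follow on the strand of the transcript, with the 7 bases AAGCACA that pair with the seed in capitals.
miR-218-5p: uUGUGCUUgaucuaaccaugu
Robo1 site (chr16:73045340-73045362, plus strand): ggttttaaAAGCACAatcactaa
Robo2 first site (chr16:73895351-73895373, minus strand): ttggtgatAAGCACAaatctcta
Robo2 second site (chr16:73893025-73893047, minus strand): gcagacccAAGCACAgcttcttt
The longest annotated 3′ UTR was searched for AAGCACA on the transcript strand only. Robo1 had 1 match and Robo2 had 2, Slit2 had 2, Robo3 had 1, and Slit1 and Slit3 had none. Of 21020 genes with a 3′ UTR, 13.8% held the motif. Among genes with a 3′ UTR of like length the share was 18.5% for Robo1 and 38% for Robo2. These matches are a description of the letters, and mature miR-218 was not measured.

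All 5 testable members were higher in neurons than in glia. In the edgeR quasi-likelihood test of the 4 neuron classes against the 4 glial classes, 5 of 5 passed at an adjusted p of 0.05, beside 65.4% of the 12165 genes tested. Slit1 had the highest log2 fold, 2.27 ± 0.0966 (SE), and Slit3 and Robo2 followed with 2.07 ± 0.118 and 2.05 ± 0.091. Slit2 had a log2 fold of 1.40 ± 0.104. Robo1 had the lowest, at 1.06 ± 0.0963, with an adjusted p of 3.61e-12 by edgeR. The median of the 5 folds was 2.05 against -0.11 over all genes tested. Robo3 was too rare to pass the count filter.

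When each class was set against the mean of the other 7, 35 of 40 pairs of member and class passed the edgeR test, 17 higher and 18 lower. The share of all genes that passed was 37.1% for the cholinergic class, 46.9% for Gad, 38.8% for Slc17a6 and 24.2% for Slc17a7. It was 48.5% for astrocytes, 51.9% for oligodendrocytes, 33.4% for OPC and 43.7% for microglia. Every call in a neuron class was higher and every call in a glial class was lower. The pairs that did not pass were Slit2 and Slit3 in the cholinergic class and Robo1 in the Slc17a7, oligodendrocyte and OPC classes. Calls lost in an alternative included Slit1 in Gad nuclei without male 2 (edgeR, adjusted p of 0.131), Slit2 in Gad nuclei with at least 3 marker UMIs (0.134) and Slit2 in OPC without male 1 (0.0771). With nuclei thinned to 2000 UMIs and classed again by the thinned counts, 25 of 40 pairs passed. The share of all genes that passed in that fit is not given here, so nothing is read from the 25. Below, classes are ordered by mean CPM and neighbours are compared in the same fit. Of all genes, 22% passed between the cholinergic and Gad classes, 17.8% between cholinergic and Slc17a6, and 16.8% between cholinergic and Slc17a7. The share was 7.5% between Gad and Slc17a6, 12.6% between Gad and Slc17a7, 11.2% between Slc17a6 and Slc17a7, and 42.6% between Slc17a6 and OPC.

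**Figure D1:**
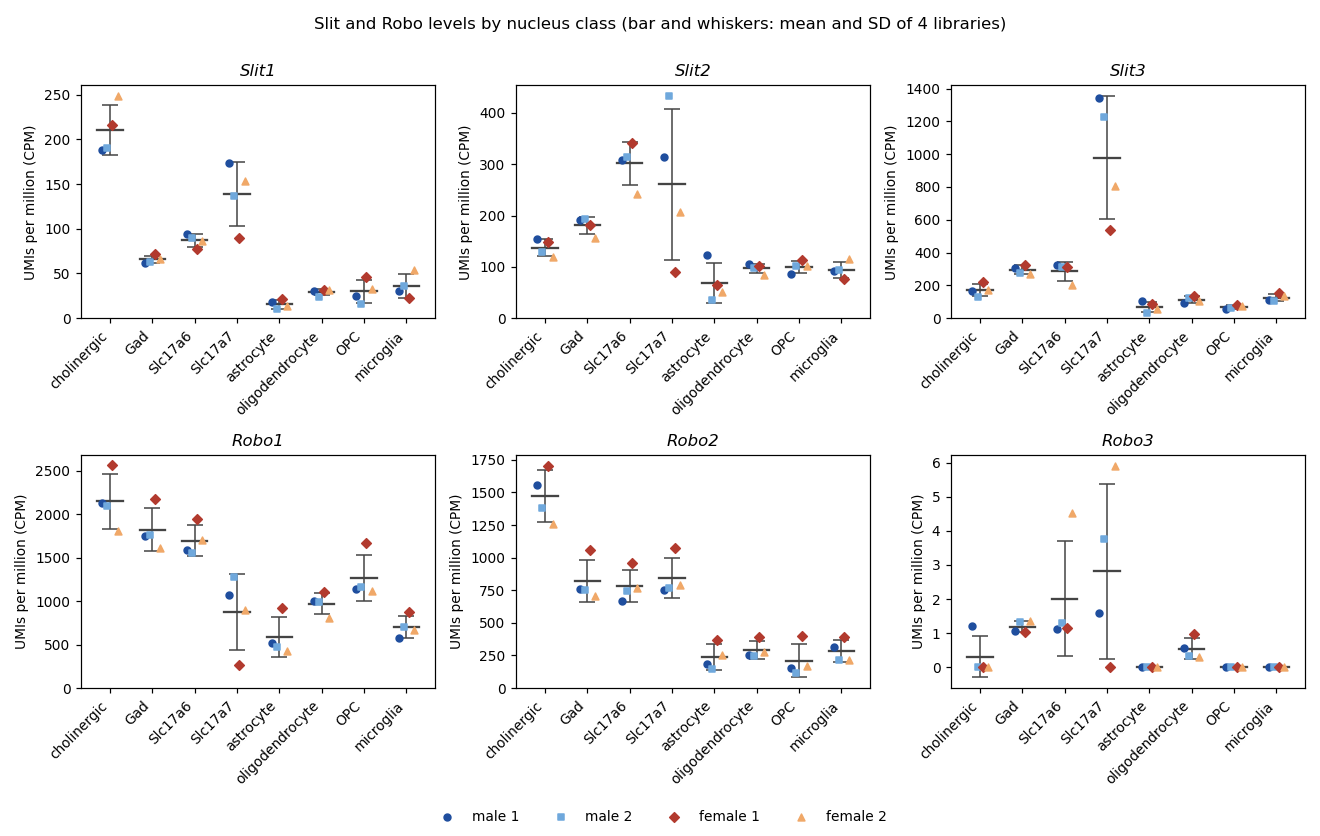
Level of each member, in CPM (vertical axis), in 8 classes of nuclei. Each symbol is 1 library, and the bar and whiskers give the mean and SD of 4 libraries; Slit1 and Robo2 are highest in the cholinergic class and Slit3 in the Slc17a7 class, where female 1 is a sum of only 2 nuclei.

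Slit1, the ligand most restricted to the nervous system, was highest in the cholinergic class. Male 1 and male 2 held 188 and 190 CPM there, and female 1 and female 2 held 215 and 248 CPM. All 4 values lay above every value of the other classes, whose highest was 173 CPM in the Slc17a7 class of male 1. Against the other classes the log2 fold was 2.27 ± 0.0999, with an adjusted p of 1.37e-20 by edgeR. The Slc17a7 class came next at 138 ± 35.9 CPM (SD, n = 4), then the Slc17a6 class at 87 ± 7.02 and the Gad class at 65.7 ± 4.06. The step from the cholinergic to the Slc17a7 class did not pass the edgeR test (adjusted p of 0.0828), while those from Slc17a7 to Slc17a6 and from Slc17a6 to Gad did (0.000362 and 0.0085). Glial means ran from 15.7 CPM in astrocytes to 36 CPM in microglia. After thinning every nucleus to 2000 UMIs, 25% to 37% of cholinergic nuclei held a Slit1 UMI. In microglia, taken here as the background class, the share was 4.76% to 7.5%. Nuclei under 2000 UMIs were left out of these shares, up to 1.28% of cholinergic nuclei and 43.6% to 70.8% of microglia per library, with median depths before thinning of 7490.5 to 20420.5 UMIs in cholinergic nuclei and 1473 to 2068 in microglia.

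Slit2, a ligand that repels many forebrain axons, was highest in the glutamate transporter classes. Slc17a6 nuclei of male 1 and male 2 held 309 and 314 CPM, and those of female 1 and female 2 held 341 and 243 CPM. Slc17a7 nuclei held 315, 434 and 207 CPM in male 1, male 2 and female 2, and 89.4 CPM in the 2 nuclei of female 1. These 2 classes overlapped, and the step between them did not pass (edgeR, adjusted p of 0.767), whereas the step from Slc17a7 to Gad did (adjusted p of 0.0011). The Gad class held 181 ± 16.6 CPM and the cholinergic class 138 ± 15.9 CPM (SD, n = 4). The cholinergic class did not differ from the mean of the other classes by this test (log2 fold 0.053 ± 0.145, adjusted p of 0.835). Glial means lay between 68.5 and 100 CPM.

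Slit3, the ligand also found widely outside the brain, was highest in the Slc17a7 class. The level was 1344 and 1229 CPM for male 1 and male 2, and 537 and 804 CPM for female 1 and female 2. Every one of these lay above every other class, whose highest value was 327 CPM in the Gad class of female 1. The log2 fold against the other classes was 3.07 ± 0.153 and the largest of the 40, with an adjusted p of 4.31e-18 by edgeR. Gad and Slc17a6 nuclei followed at 295 ± 26.7 and 287 ± 57.8 CPM (SD, n = 4), a step that did not pass (edgeR, adjusted p of 1). Cholinergic nuclei held 171 ± 38 CPM, below both, with an adjusted p of 0.0108 for the step from the Slc17a6 class by edgeR. The class with the most Slit1 had the least Slit3 of the 4 neuron classes.

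Robo1, a main Slit receptor, had the flattest profile. Its mean was 2148 ± 315 CPM in cholinergic, 1824 ± 244 in Gad and 1697 ± 180 in Slc17a6 nuclei (SD, n = 4), and the steps between these 3 classes did not pass (edgeR, adjusted p of 0.254 and 0.966). Within each of the 4 libraries the cholinergic class was nevertheless the highest. OPC came next, with 1136 and 1157 CPM for male 1 and male 2, and 1669 and 1112 CPM for female 1 and female 2. OPC were below the Slc17a6 class (edgeR, adjusted p of 0.0358) but did not differ from the mean of the other 7 classes by the test (log2 fold 0.12 ± 0.141, adjusted p of 0.575). Oligodendrocytes held 972 ± 125 CPM, with a log2 fold of -0.30 ± 0.143 and an adjusted p of 0.0771, which became 0.0107 without female 1. Slc17a7 nuclei held 1072, 1282 and 893 CPM in male 1, male 2 and female 2, and 268 CPM, from 2 nuclei, in female 1. Microglia and astrocytes were lowest at 703 ± 127 and 585 ± 229 CPM.

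Robo2, the other main receptor, separated neurons from glia without overlap. Cholinergic nuclei of male 1 and male 2 held 1556 and 1381 CPM, and those of female 1 and female 2 held 1705 and 1255 CPM. The highest value elsewhere was 1073 CPM, in the Slc17a7 class of female 1. The log2 fold of the cholinergic class was 1.97 ± 0.108, with an adjusted p of 1.05e-17 by edgeR. The Slc17a7, Gad and Slc17a6 classes were close to each other at 846 ± 153, 819 ± 160 and 785 ± 124 CPM (SD, n = 4), and neither step between them passed (edgeR, adjusted p of 0.918 and 1). Robo2 in the Slc17a7 class was called higher than in the other classes (log2 fold 0.95 ± 0.139, edgeR adjusted p of 1.23e-06). With nuclei thinned to 2000 UMIs and classed again, the fold was -0.38 (edgeR, adjusted p of 0.59). That class is not the same set of nuclei. In the class as first drawn, thinned Slc17a7 nuclei held means of 1.47, 1.15 and 1.1 Robo2 UMIs in male 1, male 2 and female 2. The 2 nuclei of female 1 held a mean of 2.5. Gad means were 1.43, 1.4, 2.05 and 1.36 in male 1, male 2, female 1 and female 2. Glial means lay between 0.189 and 0.788. All 16 glial values lay between 118 and 402 CPM, and all 16 neuron values between 670 and 1705 CPM. OPC, the glial class with the most Robo1, had the lowest mean Robo2 at 211 ± 129 CPM.

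Robo3 was close to the detection limit, with 210 UMIs over all 8 classes against 320963 of Robo1. Gad nuclei gave 180 of them, at 1.06 and 1.31 CPM for male 1 and male 2, and 1.04 and 1.36 CPM for female 1 and female 2. Slc17a6 nuclei gave 17 UMIs, Slc17a7 nuclei 4, oligodendrocytes 7 and cholinergic nuclei 2. These UMI counts depend on class size. Mean levels were 2.02 ± 1.68 CPM in Slc17a6 and 2.81 ± 2.58 CPM in Slc17a7 nuclei, against 1.19 ± 0.169 in Gad nuclei (SD, n = 4). The differences were not tested. Astrocytes, OPC and microglia gave 0 in every library, which allows up to 6.86, 5.98 and 7.63 CPM in the shallowest library when 3 counts are taken as the floor (counting error only). In single libraries of those 3 classes the limits lay above the Gad level. Summed over the 4 libraries, the 0 UMIs allow up to 1.01 CPM in astrocytes, 0.978 in OPC and 1.52 in microglia, and the Gad level of each library would have given 3.45, 3.71 and 2.4 UMIs.

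The balance of the receptors differed between classes. The ratio of Robo1 to Robo2 CPM was 1.52, 1.5 and 1.44 in male 2, female 1 and female 2 and 1.37 in male 1 among cholinergic nuclei. In the Gad class it was 2.24 ± 0.126 and in the Slc17a6 class 2.18 ± 0.151 (SD, n = 4). The Slc17a7 class had the lowest mean, 1.12, with 1.43, 1.67 and 1.13 in male 1, male 2 and female 2 and 0.25 in the 2 nuclei of female 1, a range that overlaps the cholinergic one. OPC had the highest ratio, from 4.15 to 9.84, above every value of the other classes, of which oligodendrocytes came closest at 2.84 to 4.04. Per 100 kb of gene span, cholinergic nuclei held 291 ± 42.6 CPM of Robo1 and 283 ± 38 CPM of Robo2, nearly equal on this scale only. The scale assumes that counts rise in proportion to span, which was not tested. Slc17a7 nuclei held 119 ± 59.2 CPM of Robo1 and 163 ± 29.4 CPM of Robo2 per 100 kb. OPC held 172 ± 36.3 CPM of Robo1 per 100 kb and 40.6 ± 24.9 of Robo2. On the same scale the ligands of cholinergic nuclei were at 147 (Slit1), 42.4 (Slit2) and 29.1 (Slit3) CPM per 100 kb, and those of Slc17a7 nuclei at 96.5, 80.5 and 167.

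**Figure D2:**
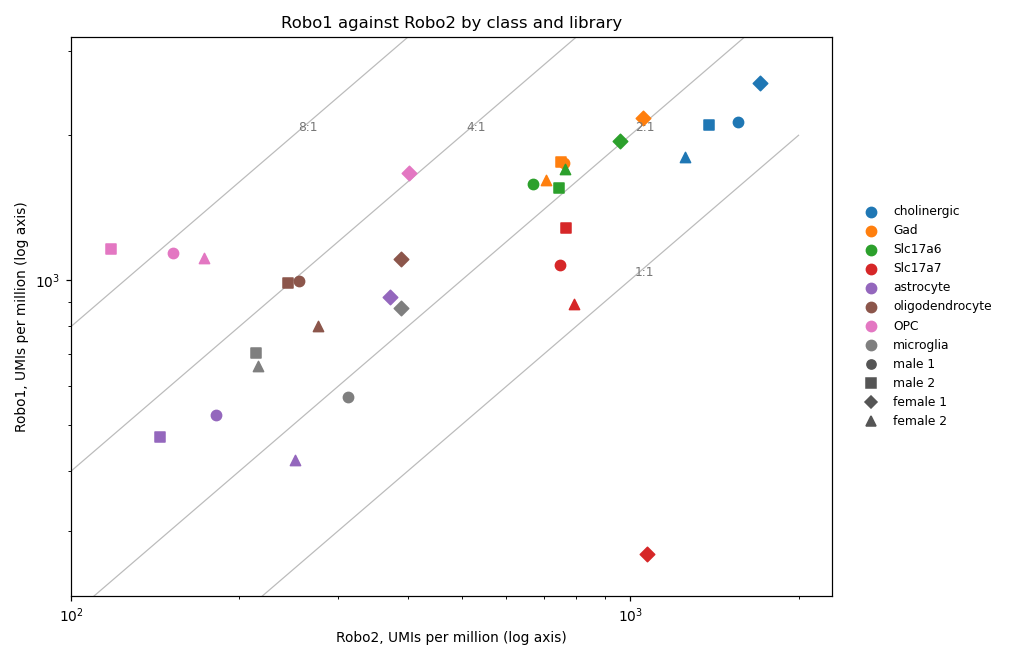
Robo1 (vertical) against Robo2 (horizontal) in CPM, both on log axes, for 8 classes (colours) and 4 libraries (symbols), with grey lines at fixed ratios. OPC lie above the 4:1 line in every library, and cholinergic nuclei lie at the top right, between the 1:1 and 2:1 lines.

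In single nuclei thinned to 2000 UMIs, both receptors were found together most often in the cholinergic class. There 70.1% to 85.5% of nuclei had a UMI of both, and 9.21% to 20.8% of Robo1 alone. Gad nuclei had both in 53.8% to 68.8%, Slc17a6 nuclei in 44.5% to 61.3% and Slc17a7 nuclei in 47.6% to 55.6%. The product of the separate Robo1 and Robo2 shares was close to these values, with a mean of 57.4% against 58% in the Gad class and 76.7% against 77.3% in the cholinergic class. In OPC, Robo1 alone was found in 62.8% to 75% of nuclei and both in 11.6% to 26.4%. Nuclei under 2000 UMIs, 2.91% to 34.9% of OPC per library, were left out. Microglia, again as background, had both in 9.09% to 32.7% and Robo1 alone in 19.5% to 40%.

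Robo1, Slit1 and Slit2 in OPC and oligodendrocytes stood higher in every library, relative to Gad nuclei, than the neuron markers counted in the same nuclei. The sum of Snap25, Syt1, Rbfox3 and Meg3 in OPC was 27.9% of its level in Gad nuclei (19.3% to 35.8%), while Robo1 was 69.1% of its Gad level (64.9% to 76.7%). In oligodendrocytes the neuron markers were at 38.2% (32.2% to 45.1%) and Robo1 at 53.4% (49.8% to 57%). The Robo1 and marker ranges did not overlap in either class. In microglia the neuron markers were at 42.6% and Robo1 at 38.5%, and in astrocytes at 24.3% and 31.3%, with overlapping ranges. Robo2 in OPC was at 24.5% of its Gad level (15.7% to 38.1%), a range that overlaps that of the neuron markers. Slit2 in OPC and oligodendrocytes was at 56% and 53.8%, above the neuron markers in every library. Slit1 was at 44.8% and 44.2%, also above the markers of the same library in all 4, by the least in OPC of male 2 (25.8% against 24%). Slit3 was at 23.4% and 38.7%. High Slit1 and Slit2 were not particular to these classes. In microglia Slit1 and Slit2 were at 55.1% and 52.9%, above the neuron markers in every library but female 1. Astrocytes had Slit2 at 37.6%, also above the markers except in female 1, and Slit1 at 23.7%, close to the markers. The part of neuronal RNA in the glial levels was not tested.

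**Figure D3:**
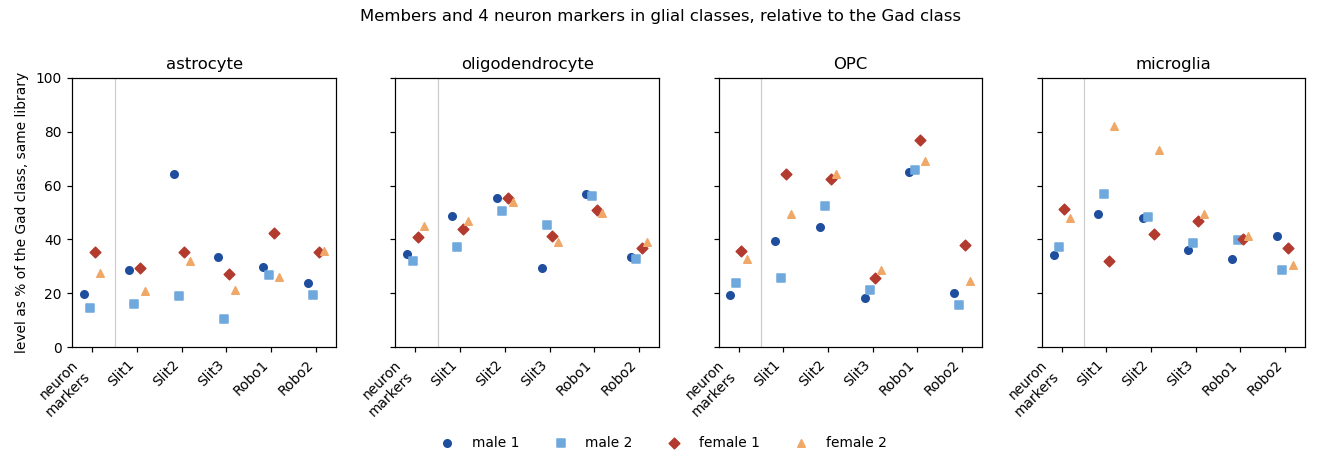
Levels in the 4 glial classes as a percentage of the Gad class of the same library (vertical axis), for the sum of 4 neuron markers and for 5 members. Each symbol is 1 library; Robo1 in OPC lies between 64.9% and 76.7%, above the neuron markers at 19.3% to 35.8%.

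The Gad class was then split by raw UMIs of 5 marker genes. The subsets were nuclei with Drd1 (350 nuclei), Drd2 (524), Tshz1 (665), Moxd1 (506) or Sst (123), and those with none of the 5 (11215). At least 2 UMIs were needed of Drd1, Drd2 or Moxd1, and at least 3 of Tshz1 or Sst. Gad nuclei in several subsets were left out, 82 and 69 of male 1 and male 2, and 10 and 16 of female 1 and female 2. Drd1 and Drd2 mark the direct and indirect pathway neurons of the striatum, and Sst marks a class of interneurons. The check genes of the Drd1, Drd2 and Tshz1 subsets were highest in their own subset. Those of Moxd1 (Prlr and Esr1) were not, and those of Sst (Npy and Nos1) hardly stood out, at 62.5 CPM against 57.1 in the Moxd1 subset. Of 30 pairs of member and subset, 12 passed the edgeR test, 6 higher and 6 lower. The share of all 11807 genes that passed was 6.61% for Drd1, 15.3% for Drd2, 11.8% for Tshz1, 18.8% for Moxd1, 3.38% for Sst and 6.59% for the nuclei with none. The Sst subset of female 1 had only 5 nuclei and its Drd1 subset 18. With nuclei thinned to 2000 UMIs and classed again by the thinned counts, only 18 pairs could be tested and 2 passed. The share of all genes that passed in that fit is not given here, so nothing is read from the 2.

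**Figure D4:**
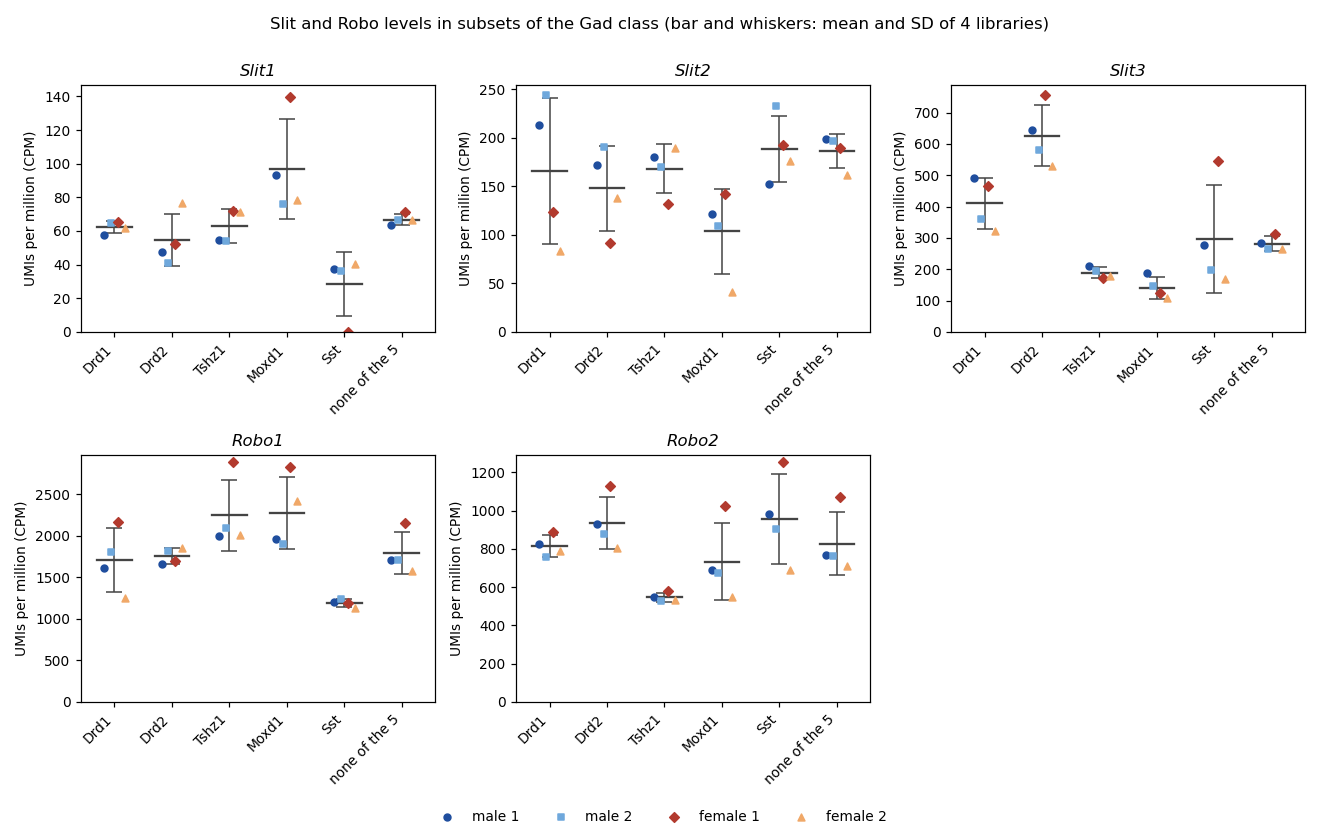
Level of 5 members in CPM (vertical axis) in 6 subsets of the Gad class. Each symbol is 1 library, and the bar and whiskers give the mean and SD of 4 libraries; Slit3 is highest in the Drd2 subset at 529 to 755 CPM and lowest in the Moxd1 subset at 108 to 187 CPM.

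Slit3 varied most among the Gad subsets. Drd2 nuclei held 645 and 579 CPM for male 1 and male 2, and 755 and 529 CPM for female 1 and female 2, the highest subset in every library. Moxd1 nuclei held 187, 145, 123 and 108 CPM in the same order, the lowest in every library, and the 2 subsets did not overlap. The Drd2 log2 fold against the other subsets was 1.43 ± 0.0744 (edgeR, adjusted p of 1.51e-18) and that of Moxd1 -1.10 ± 0.0981 (6.84e-12). Drd1 nuclei had the second highest mean at 411 ± 81.5 CPM with a log2 fold of 0.66 ± 0.0858, and the step from Drd2 to Drd1 passed (edgeR, adjusted p of 7.1e-05, beside 4.11% of all genes). Tshz1 nuclei were low, at 189 ± 17.6 CPM and a log2 fold of -0.65 ± 0.0897. The Drd2 values overlapped those of the Slc17a7 class, 537 to 1344 CPM, whose lowest came from the 2 nuclei of female 1.

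Slit1 and Slit2 moved apart in the Moxd1 subset. Slit1 stood there at 93.2, 76, 140 and 78.3 CPM in male 1, male 2, female 1 and female 2, above the nuclei with none of the markers in all 4 libraries. Its log2 fold was 0.73 ± 0.104 (edgeR, adjusted p of 5.45e-07). Slit2 was at 122, 109, 142 and 41.6 CPM and its log2 fold was -0.77 ± 0.136 (edgeR, adjusted p of 2.5e-05). It lay below the nuclei with none of the markers in all 4 libraries, and was the lowest subset in every library but female 1. There the Drd1, Drd2 and Tshz1 subsets were lower, at 124, 91.6 and 132 CPM. The value of female 2 rests on 17 UMIs. In Sst nuclei Slit1 was low, at 37.7, 36.4 and 40.2 CPM in male 1, male 2 and female 2 and 0 in the 5 nuclei of female 1. That call (log2 fold -0.79 ± 0.209, edgeR adjusted p of 0.0199) was lost without either male, at adjusted p of 0.126 and 0.0802 by edgeR, and with stricter marker thresholds (0.638) or at most 5000 genes per nucleus (0.388).

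Robo1 and Robo2 differed in opposite directions in the Tshz1 subset. Robo1 was at 2000, 2092, 2885 and 2008 CPM in male 1, male 2, female 1 and female 2, with a log2 fold of 0.38 ± 0.0856 (edgeR, adjusted p of 0.0012), or 0.0806 with stricter marker thresholds. Robo2 was at 547, 528, 579 and 530 CPM, the lowest subset in every library, with a log2 fold of -0.61 ± 0.0805 (adjusted p of 1.89e-07). Their ratio in these nuclei was 4.10 ± 0.606 (SD, n = 4), against 2.18 ± 0.108 in nuclei with none of the markers.

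Moxd1 nuclei also had high Robo1, at 1962, 1896, 2828 and 2418 CPM, with a log2 fold of 0.39 ± 0.0866 (edgeR, adjusted p of 0.000734). Sst nuclei had the least, at 1208, 1235, 1189 and 1130 CPM, below every value of the other subsets, with a log2 fold of -0.70 ± 0.102 (edgeR, adjusted p of 6.8e-06), or 0.155 with stricter marker thresholds. Their ratio of Robo1 to Robo2 was 1.30 ± 0.289 (SD, n = 4). Robo2 was slightly higher in Drd2 nuclei, with a log2 fold of 0.35 ± 0.0738 (edgeR, adjusted p of 0.000431).

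No member passed the test between males and females. Across 7 classes and 3 Gad subsets with at least 30 nuclei in every library, 0 of 51 pairs passed the edgeR test, and 4 had an unadjusted p under 0.05. DESeq2 also called 0 of 50. The share of all genes that passed was 0.0498% in the cholinergic class, 0.00545% in Gad, 0.0654% in Slc17a6, 0.0554% in astrocytes, 0.023% in oligodendrocytes, 0.095% in OPC and 0.05% in microglia. It was 0.0629% in the Drd2, 0.0445% in the Tshz1 and 0.294% in the Moxd1 subset. A missed threshold with 2 libraries of each sex does not show that the sexes were alike.

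The 4 pairs with a low unadjusted p were in glia and in Gad subsets. Of all genes, 765 of 9028 in astrocytes and 846 of 9478 in OPC had an unadjusted p under 0.05 by edgeR. In the Drd2 and Moxd1 subsets 1332 of 11124 and 1380 of 10548 genes did. Nothing is read from the count of 4, and the pairs are given as a description. Robo2 in astrocytes was at 182 and 144 CPM in males and 372 and 251 CPM in females, without overlap, with a log2 fold (male over female) of -0.89 ± 0.285 (edgeR, adjusted p of 0.434). Robo2 in OPC was at 152 and 118 CPM in males and 402 and 173 CPM in females, with a log2 fold of -1.04 ± 0.409 (edgeR, adjusted p of 0.511). Male values lay below both female values in each of these classes. Slit2 in Drd2 nuclei was at 172 and 191 CPM in males and 91.6 and 138 CPM in females, with a log2 fold of 0.70 ± 0.182 (edgeR, adjusted p of 0.293). Slit3 in Moxd1 nuclei was at 187 and 145 CPM in males and 123 and 108 CPM in females, with a log2 fold of 0.57 ± 0.233 (edgeR, adjusted p of 0.346).

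**Figure D5:**
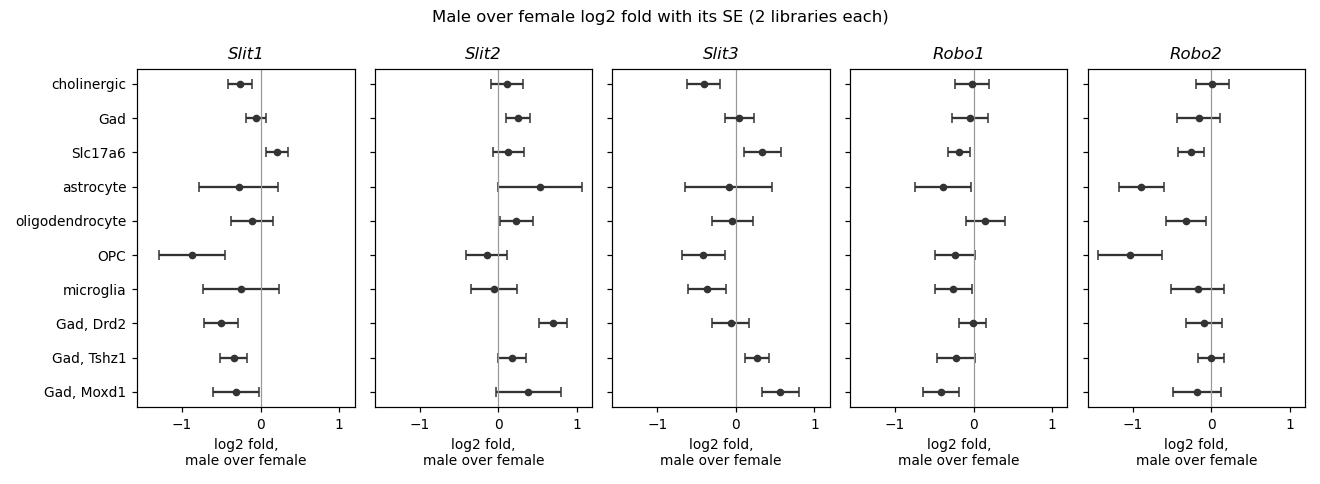
Male over female log2 fold (horizontal axis) with its SE for 5 members in 7 classes and 3 Gad subsets, from 2 libraries of each sex. No point passed the test after adjustment; Robo2 in astrocytes and OPC lies farthest toward females, at -0.89 and -1.04.

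Calls between the sexes appeared when either female library was left out, and in mostly opposite directions. The lone female is then assumed to vary like the 2 males, which were nearly alike. Robo2 was highest in female 1 in 8 of 8 classes and Robo1 in 7 of 8. Without female 1, edgeR called 12 of 53 pairs, all 12 higher in males, and among all genes 3.32% to 51.2% per class. Without female 2, it called 23 of 52, of which 21 were higher in females, and among all genes 8.82% to 57.4%. In the Gad class Robo2 had a male over female log2 fold of 0.31 (edgeR, adjusted p of 2.58e-15) without female 1 and of -0.45 (7.72e-32) without female 2. Of 7 pairs called both times, 5 turned direction and 2 were higher in males each time. The latter were Slit2 in the Gad class (0.51 without female 1, 0.11 without female 2) and Slit2 in Drd2 nuclei (0.50 and 0.94, with edgeR adjusted p of 0.0493 and 5.05e-06). Depth, Cell Ranger version and gene list differ between the female libraries or with sex, and male and female libraries had no cell barcode in common. None of these differences can be told apart from sex here. In an interaction test, 1 of 70 pairs of member and class or subset differed between the sexes in its profile. This was Slit3 in the Slc17a7 class, beside 1.28% of all genes, and it no longer passed without the 2 nuclei of female 1 (edgeR, adjusted p of 0.0194 and 0.185).

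Other genes of Slit and Robo signalling were called in both directions. Of 32 listed genes 29 were tested, and 13 were higher (44.8%) and 8 lower (27.6%) in neurons than in glia (edgeR). Of all genes tested, 28.1% were higher and 37.3% lower. The list had a median log2 fold of 0.13 against -0.11 over all genes. The netrin receptor Dcc, with which Robo receptors interact, had a log2 fold of 1.26 ± 0.105, the Robo3 ligand Nell2 1.26 ± 0.0788 and the semaphorin co-receptor Plxna1 1.13 ± 0.144. Lower in neurons were Vasp, an actin filament regulator (-1.09 ± 0.251), the small GTPase Rac1 (-0.84 ± 0.108) and the kinase Abl1 (-0.74 ± 0.0969). Abl1 was not high in all glia. Its mean was 138 CPM in microglia and 136 in oligodendrocytes, but 67.3 in astrocytes and 59.7 in OPC, close to 62.4 in Gad nuclei. Dcc was also high in OPC, at 2135 ± 370 CPM (SD, n = 4), against 1552 ± 253 in the Gad class.

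Among the Gad subsets, 28 of the listed genes were tested, and those that passed were 3 higher and 0 lower for Drd1, 3 and 2 for Drd2, 2 and 1 for Tshz1, 5 and 3 for Moxd1, 0 and 2 for Sst, and 0 and 2 for the nuclei with none. In that order these are 10.7%, 17.9%, 10.7%, 28.6%, 7.14% and 7.14% of the list, beside 6.61%, 15.3%, 11.8%, 18.8%, 3.38% and 6.59% of all genes. With so few genes in each count, nothing is read from these shares about the list. Drd1 nuclei had more Ntn1, the netrin ligand (log2 fold 1.11 ± 0.258), and more Nell2 (0.44 ± 0.1). Their Ntn1 rests on 84 UMIs, at 11.6 to 21.9 CPM. Sst nuclei had a higher Ntn1 mean of 19.5 CPM, from 8 UMIs, against 16.4 in Drd1 nuclei. Moxd1 nuclei had less of the kinase Abl2 (-0.72 ± 0.0861) and more Plxna1 (0.71 ± 0.174). The Plxna1 mean was 23.3 CPM there and 35.7 CPM in Sst nuclei, the latter from 26 UMIs. Tshz1 nuclei had more Abl2 (0.45 ± 0.0719) and less Dcc (-0.33 ± 0.0848). In Drd2 nuclei Ext1, which builds the heparan sulfate that Slits bind, was higher (0.36 ± 0.0749), and Adam10, a protease reported to shed Robo, was lower (-0.28 ± 0.088). High Ext1 was not particular to Drd2 nuclei, at 324 ± 91.9 CPM there and 332 ± 113 CPM in Tshz1 nuclei (SD, n = 4). No listed gene passed in any of the 10 comparisons of males with females by edgeR.

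Each member was last compared with 10048 genes over the 32 sums of class and library, as a description in which all sums of 1 library share its depth and chemistry. Slit1 was most like Phf24 (Pearson's r of 0.954), Nwd2 (0.946) and Clstn2 (0.944). Slit2 was most like Tenm2 (0.914), D430041D05Rik (0.899) and Trpc5 (0.891), and Slit3 most like Grin2a (0.963), Sidt1 (0.94) and Camk2a (0.931). For Robo1 the nearest genes were Rai2 (0.893), Slc6a15 (0.883) and Hectd4 (0.88), and for Robo2 Nrg1 (0.945), Rian (0.94) and Asic2 (0.937).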

How the data were processed

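The authors deposited whole-number UMI counts per gene and nucleus for each library. Cell Ranger versions were 9.0.1 for the male files, 7.0.0 for female 1 and 7.2.0 for female 2, per the file headers, while the submitters' processing notes name Cell Ranger 6.0.1, Seurat 5 and mm10. The labels' protocols name Chromium version 2 and version 3 kits without assigning them. Genes were limited to the 31899 shared by all files. No doublet caller was run; nuclei in several classes were dropped, 561 to 1164 per library. Counts were added up within each library and class, then tested with edgeR 4.0.16 (quasi-likelihood, TMM, filterByExpr, two-sided, library as a block between classes, Benjamini-Hochberg over all genes tested); SE is the log2 fold divided by the root of F. DESeq2 1.42.0 was an alternative. Code was tested on simulated data. Members are named in every class; the pathway list gives at most 3 names per direction between neurons and glia and 2 per Gad subset, by size of fold. The members and lists were chosen with earlier results of these data known. The male-by-class interaction was added after seeing the data. Chi-square per degree of freedom over genes with 20 UMIs or more was 1.43 to 2.6 across classes for the male pair and 2.39 to 89.3 for the female pair. Both males were counted as the labels list them; these values do not show that they are separate samples rather than technical repeats of 1.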

Additional observations from a re-analysis of the deposited data

Results flagged for a closer look

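Slit3 in the Slc17a7 class, relative to the other classes, differed between males and females in an interaction test that was chosen after seeing the data. The males minus females difference was 1.11 ± 0.265 on the log2 scale, with an adjusted p of 0.0194 by edgeR, beside 1.28% of the 12165 genes tested. It was the only one of 70 interactions of member with class or Gad subset that passed, and 12 had an unadjusted p under 0.05 by edgeR. The share of all genes with such an unadjusted p is not given here, so nothing is read from the 12. The Slc17a7 class of male 1 and male 2 held 1344 and 1229 CPM of Slit3, that of female 1 and female 2 held 537 and 804 CPM, with no overlap. Female 1 contributed 2 nuclei to that class. Without its sum the difference was 0.83 ± 0.264 with an adjusted p of 0.185, and without the whole of female 1 it was 0.93 ± 0.281 with an adjusted p of 0.121, both by edgeR. Without male 1, male 2 or female 2 the difference was 1.35, 1.23 and 2.81, with adjusted p of 0.0226, 0.038 and 0.0266 by edgeR. Without female 2, the 2 nuclei of female 1 are the only female Slc17a7 nuclei. The part of this small sum, and of the depth that differs with sex, in the result was not tested further.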

How the results depend on the processing

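The counts of members called kept within 1.5 times of the reported values under median-ratio size factors, DESeq2, no filter on low counts, stricter marker thresholds, at most 5000 genes per nucleus and each library left out, except as follows. Thinning to 2000 UMIs, after which nuclei were classed again by the thinned counts, left 2 of 18 pairs called among the Gad subsets. Leaving out 1 library gave 34 to 36 calls between classes, 5 to 5 between neurons and glia, 11 to 14 among Gad subsets and 0 to 23 between the sexes. For the class, neuron against glia and Gad subset counts, the share of all genes that passed in each alternative is not given here. Nothing is therefore read from how steady those counts were. Single values were followed for 61 results. These were the 40 pairs of member and class, the 5 folds between neurons and glia and the 12 Gad pairs already called. The other 4 were the sex pairs with an unadjusted p under 0.05 by edgeR. The remaining Gad and sex pairs were not followed singly, so calls they gained are not counted here. Of 677 single values, 634 kept direction and side of the threshold, 25 lost the call, 7 gained it and 11 changed sign. The sign changes were in folds near 0 or in the Slc17a7 class. For Slit3 in cholinergic nuclei they were 0.014 (median-ratio), 0.052 (DESeq2), 0.075 (without male 1), 0.10 (without male 2; range over libraries left out -0.076 to 0.10), 0.13 (thinned) and 0.26 (at most 5000 genes). Slit2 in cholinergic nuclei was -0.094 with at least 3 marker UMIs. Robo1 in the Slc17a7 class was 0.11 without female 1 (range over libraries left out -0.36 to 0.11), 0.031 with at least 3 marker UMIs and 0.11 without sums from under 10 nuclei. Robo2 in that class was -0.38 when nuclei were thinned and classed again, which does not give the same set of nuclei. The cause was not tested. The replicate block left 0 calls between the sexes. Same-numbered libraries share only a number; their deviations in the Gad class had a correlation of 0.23 over 9150 genes. The shallower female libraries and the few Slc17a7 and Sst nuclei limit the precision.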

Other observations

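Many nuclei that passed the filter met no class rule: 1739 and 1798 of male 1 and male 2, and 5193 and 4893 of female 1 and female 2. In these nuclei Robo1 was at 1386 to 1850 CPM, Robo2 at 565 to 807 CPM and Slit3 at 187 to 289 CPM. Slit2 in these nuclei was at 238 and 249 CPM for the male and at 194 and 154 CPM for the female libraries. Nuclei dropped because they met several class rules held Robo1 at 1456 to 1631 CPM and Robo2 at 580 to 719 CPM.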
